A study of Mus musculus with 6 samples.

Results

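The S100 proteins are small calcium-binding proteins whose genes lie, for the most part, in a cluster on mouse chromosome 3. The 9 genes described here are S100a1, S100a2, S100a3, S100a4, S100a5, S100a6, S100a10, S100a11 and S100a13, out of 19938 genes tested. Each gene was read from probe sets annotated with that symbol alone, and the brightest on average stood for the gene. All 9 were found, and S100a11 was the only one of them with more than 1 probe set. The genes were grouped because neighbouring members moved in opposite directions, so their differences are given as a description of known patterns.

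RNA was measured on 6 arrays of CD4 single-positive thymocytes, the late stage of T cell development in the thymus that keeps the co-receptor CD4. There were 3 arrays of Bach2 knockout cells, which were Ly5.1-, and 3 of wildtype cells, which were Ly5.1+. Both came from mixed chimeras in which lethally irradiated male Rag1 knockout recipients, unable to make T or B cells of their own, carried marrow of both genotypes depleted of mature lineages. Donors and recipients were male and 8 weeks old on a C57BL/6 background, and cells were sorted 2 months after transfer. The knockout and the Ly5.1 allele went together in every sample, so their effects cannot be told apart.

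S100 proteins usually form dimers, bind calcium through a pair of EF-hand loops and then expose a surface that grips a target protein. S100A10 is the exception that no longer binds calcium and stays in the shape that holds annexin A2. In T cells, S100a4, S100a6, S100a10 and S100a11 are known as genes of activated, memory and regulatory cells. Bach2 is a repressor that pairs with small MAF proteins and recognises DNA elements that contain the core also bound by AP-1.

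The values are log2 expression after robust multi-array averaging (RMA), the normalization named by the submitters, so a difference of 1 is a doubling. Knockout minus wildtype differences come from limma fitted over all 19938 genes, with Benjamini-Hochberg adjusted p and a threshold of 0.05. A gene that rose or fell passed that threshold. Bach2 read 7.89, 8.20 and 8.05 on the wildtype arrays against 6.50, 6.42 and 6.52 on the knockout arrays, which checked the labels. Cd4 (10.3 to 10.4) and Cd3e (11.4 to 11.5) were at like levels on every array, and Cd8a was at 8.90 on knockout replicate 3 against 7.67 to 7.90 on the other 5 arrays. Arrays correlated at 0.981 to 0.991 across probe sets. Wildtype replicates 1 and 2 correlated least.

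Of the 9 S100 genes, S100a6, S100a2 and S100a11 rose in the knockout, and 6 did not pass. Over all genes 0.567% passed in either direction and 0.351% as higher. S100a4 had the largest difference of the members, and it was towards lower values. The knockout values lay wholly above the wildtype values for 5 members (S100a2, S100a3, S100a6, S100a10 and S100a11) and wholly below for S100a4. Of all genes 11.7% had such groups in either direction, 5.13% as higher and 6.57% as lower. Nothing is read from these shares, since the members were picked with the results known. The median difference of the members was 0.20 and that of all genes tested -0.01.

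**Figure D1:**
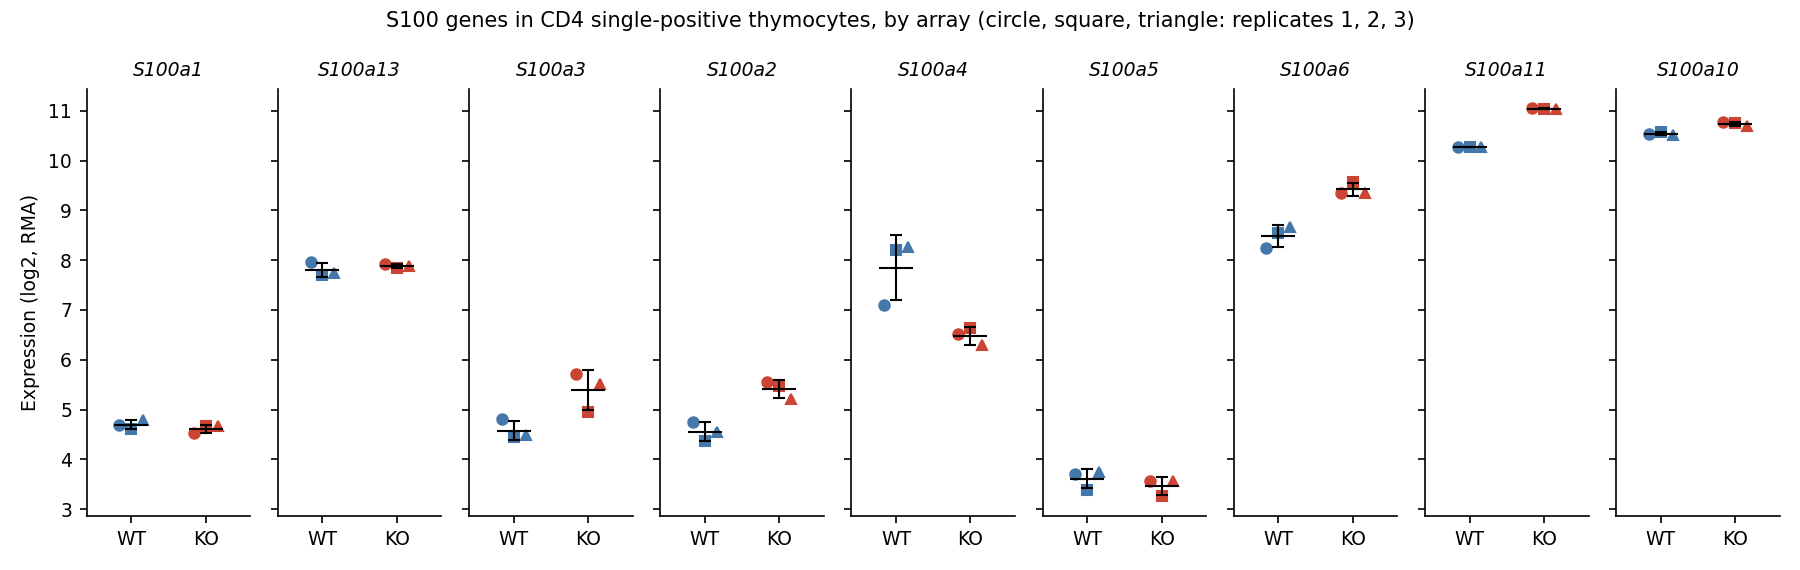
Expression (log2, RMA) of the 9 S100 genes on each array, in chromosome order. Blue marks are wildtype (WT) and red marks knockout (KO), circles, squares and triangles are replicates 1, 2 and 3, and black bars are the mean and SD of 3 arrays. S100a11 is at 10.27 to 10.28 in wildtype and 11.03 to 11.05 in knockout arrays, whereas wildtype S100a4 is spread from 7.10 to 8.26.

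S100a11, a partner of annexin A1 with a known part in plasma membrane repair, was the steadiest of the genes that rose. It read 10.277, 10.273 and 10.272 on the wildtype arrays against 11.046, 11.031 and 11.042 on the knockout arrays. The replicates of a genotype almost coincided and the groups were far apart relative to that spread. The mean rose from 10.27 ± 0.003 to 11.04 ± 0.008 (SD, n = 3 each), 1.70-fold, with a log2 difference of 0.77 ± 0.09 (limma standard error, as below; adjusted p = 0.00362).

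A further probe set annotated to S100a11 gave a like difference at a slightly lower signal. Its replicates were further apart (SD 0.040 for wildtype and 0.034 for knockout). It read 10.178, 10.193 and 10.118 on the wildtype arrays against 10.920, 10.969 and 10.904 on the knockout arrays, a difference of 0.77. When all 35556 probe sets were tested together, both S100a11 probe sets passed (adjusted p = 0.0344 and 0.0403), and S100a11 was the 1 member that did. RefSeq also lists a pseudogene, S100a11-ps, whose transcripts the probes might not tell from those of S100a11.

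S100a6, also called calcyclin, is a growth-associated gene whose protein binds the ubiquitin ligase adaptor Cacybp and annexins. Its wildtype values were 8.243, 8.551 and 8.656 and its knockout values 9.348, 9.571 and 9.355. The lowest knockout value lay above the highest wildtype value, with wildtype replicate 1 the lowest of all. The mean rose from 8.48 ± 0.21 to 9.42 ± 0.13 (SD, n = 3 each), 1.92-fold (difference 0.94 ± 0.13, adjusted p = 0.00869). It also passed whichever of the 6 arrays was dropped, with adjusted p from 0.0152 to 0.0497.

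S100a2, known from human epithelium as a gene of basal keratinocytes, was dim in wildtype cells. It read 4.746, 4.373 and 4.556 on the wildtype arrays against 5.548, 5.472 and 5.216 on the knockout arrays. For comparison, the median of all probe-set values was 4.94, so the wildtype values lay under that median and the knockout values above it. S100a2 rose 1.81-fold (difference 0.85 ± 0.13, adjusted p = 0.0159). When single arrays were dropped, S100a2 missed the threshold 3 times, with adjusted p of 0.0978 for the fit lacking wildtype replicate 3 and of 0.0678 and 0.0892 for those lacking knockout replicate 1 or 2.

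S100a3, best known from the cuticle of hair, stood close to S100a2 in level and difference. Its wildtype values were 4.803, 4.446 and 4.486 and its knockout values 5.721, 4.943 and 5.512. The groups did not overlap, but knockout replicate 2 lay nearer to the wildtype than the other knockout arrays. The difference was 0.81 ± 0.18 with a 95% interval from 0.40 to 1.22, and it did not pass (adjusted p = 0.128). Without knockout replicate 2 it was 1.04 and passed (adjusted p = 0.027). In RefSeq's GRCm38.p6 annotation S100a2 lies inside the span of S100a3, so signals of this pair may not be separate.

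S100a10, also known as p11, forms a complex with annexin A2 that carries proteins to the cell surface. It read 10.539, 10.570 and 10.511 on the wildtype arrays against 10.767, 10.752 and 10.690 on the knockout arrays. All knockout values were higher, by a small margin. The difference was 0.20 ± 0.09 and did not pass (adjusted p = 0.723, unadjusted p = 0.0499), with a 95% interval from 0.0001 to 0.39. That interval lies below the difference of 0.77 measured for S100a11, its direct neighbour in gene order; the difference between the 2 genes' responses was not tested.

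S100a4, known as metastasin or fibroblast-specific protein, binds non-muscle myosin IIA and is a marker of memory and regulatory T cells. It read 7.102, 8.197 and 8.255 on the wildtype arrays against 6.511, 6.634 and 6.288 on the knockout arrays. Every knockout value was lower than every wildtype value, and wildtype replicate 1 lay nearer to the knockout arrays than to the other wildtype arrays. The means were 7.85 ± 0.65 and 6.48 ± 0.18 (SD, n = 3 each), a 2.59-fold difference. On the log2 scale it was -1.37 ± 0.26 with a 95% interval from -1.95 to -0.79, just outside the threshold (adjusted p = 0.058). Without wildtype replicate 1 the difference was -1.75 and passed (adjusted p = 0.000304). Dropping any of the other 5 arrays gave -1.17 to -1.45 and did not pass.

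The last 3 members had overlapping groups. S100a13, which takes part in the export of fibroblast growth factor 1 and interleukin 1 alpha, read 7.961, 7.694 and 7.745 on the wildtype arrays against 7.926, 7.849 and 7.879 on the knockout arrays. Its difference of 0.08 had a 95% interval from -0.14 to 0.31 (adjusted p = 0.983). S100a1, a regulator of calcium handling in heart muscle, spanned 4.60 to 4.79 for wildtype and 4.52 to 4.67 for knockout (difference -0.08, interval -0.30 to 0.14, adjusted p = 0.984). S100a5, known from olfactory neurons, was the dimmest, at 3.39 to 3.75 and 3.26 to 3.58 (difference -0.15, interval -0.44 to 0.14, adjusted p = 0.959). S100a1 and S100a5 were the 2 members whose mean did not exceed the median of all probe-set values, so 7 of the 9 would pass a filter on dim genes, S100a2 and S100a3 of these through their knockout arrays.

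**Figure D2:**
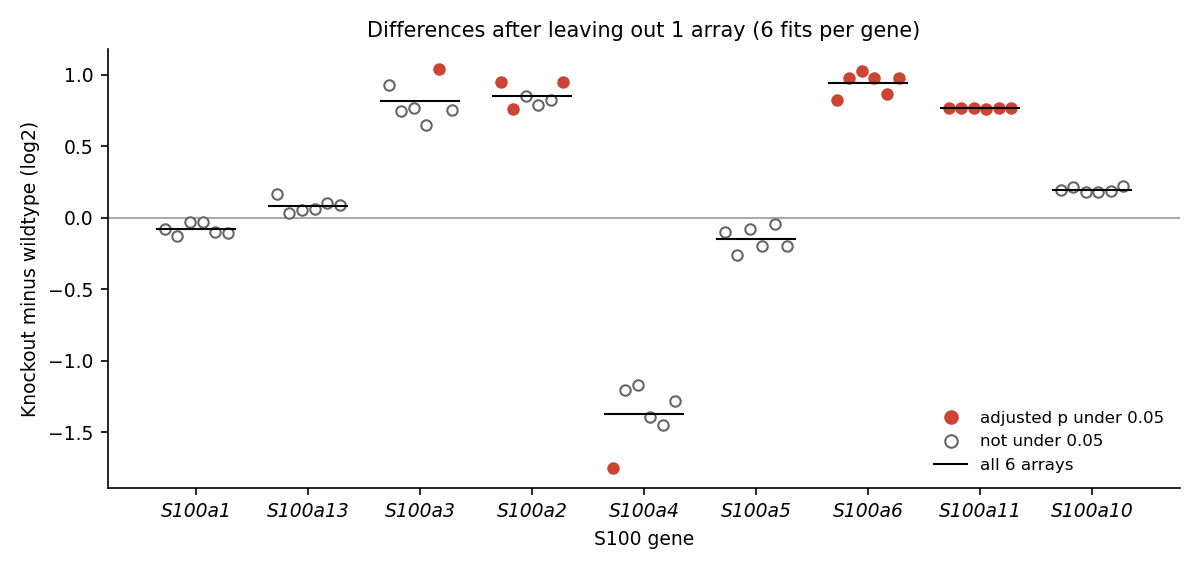
Knockout minus wildtype differences (log2) of the 9 S100 genes after leaving out each array in turn, 6 points per gene. Filled points have an adjusted p under 0.05, open points do not, and the black line is the difference with all 6 arrays. S100a6 and S100a11 pass in all 6 fits, S100a2 in 3, and S100a3 and S100a4 in 1 each.

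In gene order on chromosome 3, opposite differences lay side by side. From S100a1 onwards the members follow as S100a13, S100a3, S100a2, S100a4, S100a5 and S100a6, with S100a14 and S100a16 between S100a13 and S100a3. S100a4 (-1.37) therefore sat between S100a2 (0.85) and S100a5 (-0.15), and S100a6 (0.94) followed directly. S100a11 (0.77) and S100a10 (0.20) are a pair of their own, 51 tested genes further on. The tested genes directly next to a member, and not members themselves, were Chtop (0.03), S100a14 (0.01), S100a16 (-0.09), S100a7a (-0.07), Tchhl1 (0.01) and Tdpoz2 (-0.16), and each of these had overlapping groups. Of the 53 tested genes in the stretch that were not members, 0 passed by limma, with a smallest adjusted p of 0.135. For 5 of them, named after their values were seen, the groups did not overlap, with S100a9, Sprr2e, Sprr2k and Flg2 higher and Sprr2b lower. Of all genes tested 0.567% passed and 11.7% had groups that did not overlap, so nothing is read from these counts.

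**Figure D3:**
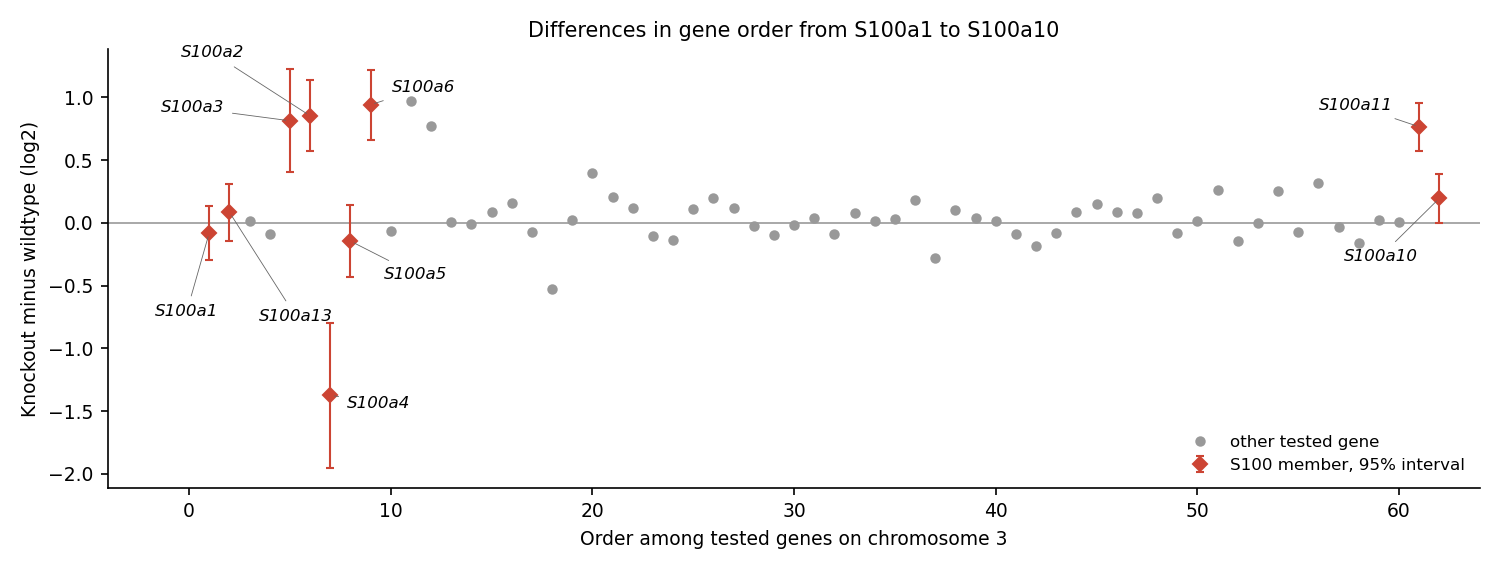
Knockout minus wildtype difference (log2) of the 62 tested genes from S100a1 to S100a10, in their order on chromosome 3. Red diamonds are the 9 S100 members with the 95% interval of limma, and grey points are the other 53 genes. S100a4 at -1.37 lies between S100a2 at 0.85 and S100a6 at 0.94.

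The promoter windows of 3 members are shown because S100a11 was the steadiest rise and S100a6 and S100a4 are near neighbours with opposite differences. The windows run from 250 bases before to 50 bases after the transcription start, from RefSeq on GRCm38.p6, and 7 of the 9 members had at least 1 window in that table, S100a2 and S100a10 being the exceptions. Each was searched on both strands for TGANTCA, the core shared by AP-1 and Bach elements, and for the longer MAF recognition element that contains this core. Capitals mark matches.
S100a11 (chr3:93520246-93520545, plus strand): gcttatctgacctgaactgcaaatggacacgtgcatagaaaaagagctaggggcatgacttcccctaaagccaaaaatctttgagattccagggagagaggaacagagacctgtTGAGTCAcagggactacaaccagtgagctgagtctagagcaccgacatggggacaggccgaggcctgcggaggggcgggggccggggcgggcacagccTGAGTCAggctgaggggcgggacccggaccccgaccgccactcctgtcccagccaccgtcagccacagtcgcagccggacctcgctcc
S100a6 (chr3:90612644-90612943, plus strand): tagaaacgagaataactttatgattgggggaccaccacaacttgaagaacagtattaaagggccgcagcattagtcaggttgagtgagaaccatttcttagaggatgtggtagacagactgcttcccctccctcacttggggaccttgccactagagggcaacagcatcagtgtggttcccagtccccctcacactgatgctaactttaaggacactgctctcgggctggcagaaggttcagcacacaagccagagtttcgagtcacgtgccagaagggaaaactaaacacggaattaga
S100a4 (chr3:90603520-90603819, plus strand): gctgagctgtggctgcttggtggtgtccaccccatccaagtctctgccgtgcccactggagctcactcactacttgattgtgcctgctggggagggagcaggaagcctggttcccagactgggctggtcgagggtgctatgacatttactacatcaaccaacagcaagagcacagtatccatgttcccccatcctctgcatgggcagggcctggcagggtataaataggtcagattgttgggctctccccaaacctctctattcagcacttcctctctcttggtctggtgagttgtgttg

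The S100a11 window held 2 matches to TGANTCA, which begin 136 and 38 bases before the start. The windows of S100a6 and S100a4 held none, and neither did those of S100a1, S100a3, S100a5 and S100a13. Over all 32851 promoter windows of the table, 7.81% held at least 1 match and 0.46% held at least 2. The longer element was in 0.423% of all windows and in none of the members' windows. These are matches of letters and no measurement of binding was made.

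The genes nearest in pattern to S100a4 included regulatory T cell genes. By distance between values centred on each gene's own mean over the 6 arrays, among genes with an SD of at least 0.3, the 3 nearest to S100a4 were Ctla4, Ikzf2 and Cxcr3 (root-mean-square distance 0.20, 0.21 and 0.24 on the log2 scale). Ctla4, an inhibitory receptor of regulatory T cells, read 8.06, 8.96 and 8.83 on the wildtype arrays against 7.39, 7.71 and 7.48 on the knockout arrays, with a difference of -1.09 that did not pass (adjusted p = 0.0568). Ikzf2, the Helios transcription factor, fell by 1.51 (adjusted p = 0.00754; 0.0617 without wildtype replicate 3). Cxcr3, a chemokine receptor, fell by 1.42 (adjusted p = 0.00371). In each of these genes wildtype replicate 1 was the lowest wildtype array, as in S100a4. The genes were picked for values like those of S100a4 on these same arrays, so nothing is read from the shared direction or order. Within the knockout the order varied: S100a4 was highest on replicate 2 and lowest on replicate 3. Ctla4 and Cxcr3 were also highest on replicate 2 but lowest on replicate 1. Ikzf2 was lowest on replicate 2 and highest on replicate 3.

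Of 19 regulatory T cell markers measured, 6 fell, 1 rose (Izumo1r, the folate receptor 4) and 12 did not pass, with a median difference of -1.04 against -0.01 over all genes. By limma's threshold 0.216% of all genes fell and 0.351% rose. By unadjusted p under 0.05 the count was 17 of the 19, against 6.91% of all genes, and 17 differences lay below 0 and 2 above. The knockout values lay wholly below the wildtype values for 13 and wholly above for 1, against 6.57% and 5.13% of all genes. Averaged per array, the markers read 6.93, 7.69 and 7.66 for wildtype against 6.51, 6.49 and 6.55 for knockout, in the order of the replicate numbers. The knockout averages lay close together, from 6.49 on replicate 2 to 6.55 on replicate 3. Foxp3, the factor that defines the lineage, read 7.30, 8.29 and 8.33 on the wildtype arrays against 5.58, 5.36 and 5.69 on the knockout arrays. The number that fell was 1 without wildtype replicate 3 and 12 without wildtype replicate 1. In bulk samples fewer cells of a type and less RNA per cell cannot be told apart. The part of regulatory T cells in the S100a4 difference was not tested.

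**Figure D4:**
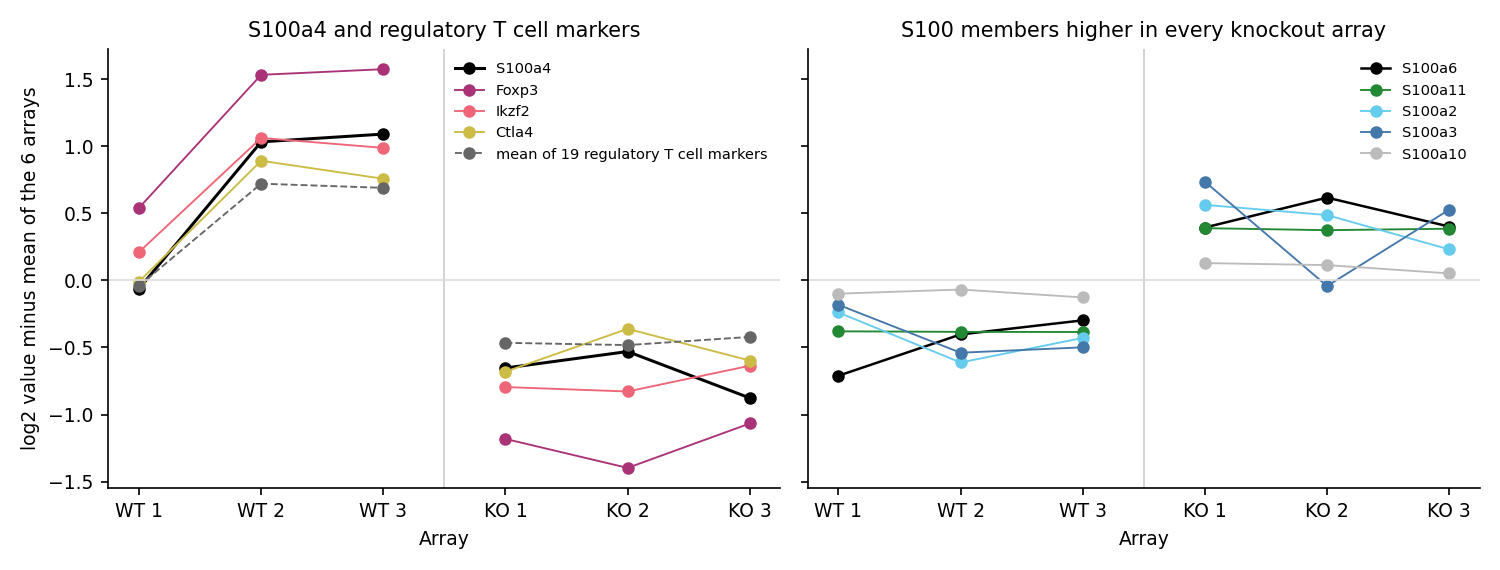
Values of each array minus the gene's mean over the 6 arrays (log2), on the left for S100a4, 3 regulatory T cell genes and the mean of 19 regulatory T cell markers, on the right for the 5 S100 genes with higher values in every knockout array. Thin lines join arrays of 1 genotype and imply no order. Wildtype replicate 1 is the lowest wildtype array for S100a4 and for the markers on the left, while S100a11 has the same value in all 3 wildtype arrays to within 0.005. Ctla4 and Ikzf2 are among the genes picked for a pattern like that of S100a4.

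The S100 genes that rose had other neighbours by the same measure, which picks genes with a like difference, so the direction of these neighbours is no result. Nearest to S100a11 were Trat1, an adaptor of the T cell receptor complex, Tonsl, a DNA repair scaffold, and Eya2, each at a distance of 0.07. They rose by 0.81, 0.77 and 0.74. Nearest to S100a6 were Tnfrsf26 (0.11), the phosphodiesterase Pde3b (0.11) and the stress kinase Map3k5 (0.13), which rose by 0.95, 0.77 and 0.82. Tonsl (0.10), Ncmap (0.13) and Eya2 (0.14) were nearest to S100a2, where Ncmap differed by 0.67 without passing (adjusted p = 0.0706). Eya2 lost its call without wildtype replicate 3 or knockout replicate 2 (adjusted p up to 0.0569), Pde3b without knockout replicate 2 or 3 (up to 0.0625), and Map3k5 when wildtype replicate 3 or any knockout replicate was dropped (up to 0.107). S100a13 itself varied too little to enter the pool of genes with an SD of at least 0.3, which leaves out genes as flat as it. Within that pool the genes nearest to it were Plekho2, Rnu3a and Phf7, at distances of 0.20, 0.21 and 0.21, with adjusted p of 0.93, 0.998 and 0.272.

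Genes that accompany S100a4, S100a6, S100a10 and S100a11 in memory and recirculating T cells were read as a further list. Of 18 measured effector-memory and recirculation genes, 2 fell by limma, 0 rose and 16 did not pass (11 of the 18 had an unadjusted p under 0.05), with a median difference of -0.25. By unadjusted p under 0.05 the share over all genes tested was 6.91%. It is the share to set beside the counts by unadjusted p here and below. By limma's threshold 0.351% of all genes rose and 0.216% fell. The knockout values lay wholly above the wildtype values for 2 of the 18 and wholly below for 10, against 5.13% and 6.57% of all genes. Emp3, of the epithelial membrane protein family, read 10.732, 10.605 and 10.678 on the wildtype arrays against 9.921, 9.842 and 9.839 on the knockout arrays, and fell by 0.80 ± 0.09 (adjusted p = 0.00362). Lgals1, galectin 1, fell by 0.76 but missed the threshold when wildtype replicate 1 or 3 or knockout replicate 1 or 3 was dropped (largest adjusted p 0.0808). The count that fell was 4 without wildtype replicate 1 and 1 without wildtype replicate 3, knockout replicate 1 or knockout replicate 3. Among naive T cell and thymic egress genes, 16 were measured: Cd55 (-2.07), Dapl1 (-1.92) and Igfbp4 (-0.96) fell, 0 rose and 13 did not pass (7 of the 16 had an unadjusted p under 0.05), with a median difference of -0.12. Dapl1 missed the threshold without knockout replicate 2 (adjusted p = 0.0547).

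Genes of proteins that bind S100 proteins, or act as their receptors, stayed short of the threshold. Of 20 such genes 0 passed by limma (1 by unadjusted p under 0.05), and their median difference was 0.02. That 1 gene was Anxa2, the partner of S100a10, with wildtype values of 6.003, 6.681 and 6.372 against knockout values of 6.855, 6.809 and 7.018. All knockout values were higher, and the difference of 0.54 ± 0.16 did not pass (adjusted p = 0.314). Ahnak, a giant scaffold held by the S100a10 and annexin A2 complex, differed by -0.22 (adjusted p = 0.771). Of the partners named above for S100a11, S100a6 and S100a4, Anxa1 differed by 0.19, Cacybp by -0.11 and Myh9 by 0.05. Myh9 is the heavy chain of myosin IIA. Annexins were also named as partners of S100a6, and Anxa2 is among them.

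Among other EF-hand proteins no gene passed either. Of 22 measured, 0 passed by limma (4 by unadjusted p under 0.05), with differences from -0.37 to 0.22 and a median of 0.01. The smallest p values belonged to Rcn1, a reticulocalbin of the endoplasmic reticulum (-0.37, adjusted p = 0.215), and Gca, or grancalcin (-0.29, adjusted p = 0.502). Calmodulin genes differed by 0.01 (Calm2) and less than 0.01 in size (Calm3). Of 8 epidermal genes of the same chromosomal complex, 0 passed by limma (1 unadjusted). Flg2 differed by 0.32 (adjusted p = 0.436) and Rptn by -0.16 (adjusted p = 0.932).

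Outside the 9 members, 8 more S100 genes were measured and limma called 0 of them (2 by unadjusted p under 0.05). Those 2 were S100a8 and S100a9, the subunits of calprotectin, which neutrophils and monocytes make in bulk. S100a8 read 3.390, 3.285 and 3.919 on the wildtype arrays against 4.688, 3.639 and 5.173 on the knockout arrays, which overlap, with a difference of 0.97 (adjusted p = 0.456). S100a9 was at 4.167, 3.402 and 4.099 and at 4.704, 4.245 and 5.047, a difference of 0.78 (adjusted p = 0.34). For both genes, as for S100a3, knockout replicate 2 was the lowest knockout array, and without it the S100a8 difference was 1.40 (adjusted p = 0.0347). S100a7a, S100a14, S100a16, S100b, S100g and S100z differed by -0.26 to 0.05.

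Markers of other cells that a sort could carry over were read beside these values. Of 10 neutrophil markers, S100a8 and S100a9 included, 0 passed by limma (2 by unadjusted p under 0.05). The mean of the list spanned 3.71 to 4.04 for wildtype and 3.88 to 4.14 for knockout. Apart from S100a8 and S100a9, its genes differed by -0.14 (Mpo) to 0.15 (Camp). Of 12 macrophage and monocyte markers 1 rose, Lyz2, by 1.39 (adjusted p = 0.0256, past the threshold in only 2 of the 6 fits with 5 arrays), and the mean of the list spanned 4.48 to 4.56 for wildtype and 4.58 to 4.90 for knockout. Of the 12, 5 had an unadjusted p under 0.05, and 8 differences lay above 0 and 4 below. Without passing, C1qc, C1qa and C1qb differed by 0.71, 0.42 and 0.35, Itgam and Mpeg1 by -0.33 and -0.31, and Csf1r and Adgre1, which define the lineage, by 0.08 and -0.06. These 7 were named after their values were seen. Thymic epithelial and stromal markers (10 measured), dendritic cell markers (10), B cell markers (6) and erythroid markers (4) had 0 members past limma's threshold and 0 by unadjusted p under 0.05. CD8 T cell markers (7) and natural killer markers (8) had 0 past it as well, with 3 and 4 by unadjusted p under 0.05. Their median differences were -0.37 and -0.02. The knockout values lay wholly below the wildtype values for 2 and 3 of them and wholly above for 0 and 1, against 6.57% and 5.13% of all genes. Of 11 double-positive thymocyte markers 0 passed by limma and 7 had an unadjusted p under 0.05, with 9 differences above 0 and a median of 0.38. Averaged per array, that list spanned 7.34 to 7.63 for wildtype and 7.44 to 8.32 for knockout, highest on knockout replicate 3. Themis and Sox4 differed by 0.55 and -0.46, and Rag1, Arpp21 and Cd24a, named after their values were seen, by 1.27, 0.95 and -0.58. The part of these cells in the S100 differences was not tested.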

How the data were processed

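Total RNA of sorted thymocytes was amplified and hybridised to 6 arrays, 3 per genotype. The deposited values are log2 expression per probe set, made by the authors with RMA and Partek per the submitters' processing notes, without versions; the log2 scale was read from the values (1.1 to 13.2). The sources used here name no genome build. Arrays give no read depth, and their number limits the precision.

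Of 35556 probe sets, 21789 had 1 gene symbol, 1621 several and 12146 none listed. The brightest probe set per symbol gave 19938 genes, of which 19855 were placed in gene order by gene number through a RefSeq table (GRCm38.p6), used for order and names only. limma 3.58.1 in R 4.3.3 (lmFit, eBayes, two-sided, Benjamini-Hochberg) compared the genotypes over all genes. On simulated data with 19938 genes the same fit recovered 25% of changes of 0.5 and 85% of changes of 1 on the log2 scale (100 genes of each size). It also made 8 false calls among the genes left unchanged.

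The S100 genes and the other gene lists were chosen with earlier results of these data known. Named genes are all S100 genes, from each list up to 4 members that passed or else the 2 with the smallest p, the genes next to each member, and the 3 nearest in pattern to S100a2, S100a4, S100a6, S100a11 and S100a13. Of the regulatory T cell list only Foxp3, Ctla4, Ikzf2 and Izumo1r are named, and several other lists are given as counts. Izumo1r, Cd4, Cd3e, Cd8a, Anxa1, Cacybp, Myh9, Calm2, Calm3, Mpo and Camp are named outside that rule. The same holds for the genes marked as named after their values were seen. Of 11 T cell identity markers measured, 1 fell (Bach2). Alternatives were a trended or robust variance prior, a fit with no moderation, leaving out dim genes, 2 further normalizations, array weights, averaged or all probe sets, the replicate number as a block and leaving out each array. The replicate numbers did not pair the arrays: deviations of same-numbered arrays correlated at 0.21, 0.11 and -0.07 across genes, and the design text says that samples came from separate mice. A planned comparison of protein sequences was not made. Figures were drawn with matplotlib 3.10.9.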

Additional observations from a re-analysis of the deposited data

How the results depend on the processing

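All 9 S100 differences kept their sign under every alternative that could be run for them (16, or 15 for S100a1 and S100a5, which a filter on dim genes removes). Many of these could not change a sign. The variance priors, the fit with no moderation, the dim-gene filter, the test of all probe sets and the replicate block leave the difference itself as it was. For the 6 members whose groups did not overlap, leaving out an array could not change the sign either. With 3 S100 genes higher with all arrays, 1 (S100a11) passed without moderation and 1 when all probe sets were tested, where the overall counts were 1 and 29 genes higher and 0 and 8 lower, against 70 and 43. Leaving out each array gave 29 to 82 genes higher and 18 to 66 lower, and 2 to 3 S100 genes higher and 0 to 1 lower. With a prior that follows expression level 78 genes were lower. The number of S100 genes lower was 0 by limma with all arrays (1, S100a4, by unadjusted p under 0.05) and 1, again S100a4, with that prior (adjusted p = 0.0159), without dim genes (0.0473), with median centring (0.0425), with array weights (0.0281) and with the replicate block (0.0348). That block also brought S100a3 past the threshold (adjusted p = 0.0263, 4 S100 genes higher), and it gave 79 genes higher and 55 lower; the labels do not pair the arrays. The causes of these shifts were not tested. The difference of S100a10 stayed between 0.18 and 0.22. RMA forces every array onto the same distribution and would hide a change in total RNA, and probes at the dim end bound what can be said of S100a1 and S100a5.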
